A study of Mus musculus with 9 samples.

Results

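Cell adhesion genes Cadm1, Alcam, Ptprf, Clmp, Cdh2 and Cdh13 were followed in 3 mouse tumour cell lines, as 6 of the 11046 genes in the deposited table of raw read counts. They were picked by name because earlier results of these data had shown large differences in their counts between the lines, so their differences are described here and not tested. By their labels, 482N1 is lung NSCLC (non-small-cell lung cancer). The cell type of B16F10-BrM is labelled BRAF mutant melanoma, and that of E0771-BrM triple negative breast cancer. BrM stands for brain metastatic, all 3 lines carry the genotype label WT, and none was treated. The lung and melanoma lines grew in DMEM, but the breast line grew in RPMI 1640 that contained HEPES, so for E0771-BrM line and medium cannot be told apart. Each line had 3 poly(A)-selected, stranded libraries, named A, B and C. The labels do not say whether these were separate cultures, so SDs and p-values measure the spread between libraries, which may be technical.

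Cadherins are calcium-dependent adhesion proteins that bind the same kind of cadherin on the neighbouring cell and are tied to actin through catenins. Adhesion proteins of the immunoglobulin superfamily work without calcium, in like or unlike pairs, and several of them also sit at synapses, where they join the cell that releases transmitter to the cell that receives it. LAR-type receptor phosphatases belong to the same contacts and carry adhesion signals to the cytoplasm through liprins. In epithelial tumours a change from E-cadherin to N-cadherin is a known mark of mesenchymal character, and adhesion molecules shared with neurons are studied in tumour cells that grow in brain.

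Promoter windows are shown for Alcam and Ptprf, the only 2 members with an entry in the RefSeq promoter table (GRCm38.p6). Each window runs 5′ to 3′ on the gene's strand, from 250 bases before the annotated start to 50 after it, and capitals mark the motifs described below.
Alcam, chr16:52453032-52453331, minus strand: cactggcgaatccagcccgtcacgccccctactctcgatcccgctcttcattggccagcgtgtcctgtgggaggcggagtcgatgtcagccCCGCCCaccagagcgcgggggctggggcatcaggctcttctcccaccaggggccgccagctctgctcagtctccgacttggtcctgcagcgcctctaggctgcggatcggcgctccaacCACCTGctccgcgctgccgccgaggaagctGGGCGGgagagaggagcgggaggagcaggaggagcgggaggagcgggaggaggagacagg
Ptprf, chr4:118291348-118291647, minus strand: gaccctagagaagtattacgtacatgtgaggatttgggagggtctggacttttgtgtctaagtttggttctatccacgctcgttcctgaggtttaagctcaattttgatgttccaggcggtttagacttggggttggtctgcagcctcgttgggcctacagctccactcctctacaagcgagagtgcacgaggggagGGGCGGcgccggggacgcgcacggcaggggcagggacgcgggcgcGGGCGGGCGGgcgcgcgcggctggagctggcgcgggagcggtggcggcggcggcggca

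Both windows are rich in G and C (69.7% in Alcam and 64% in Ptprf, against a median of 52.7% over 32851 windows in that table). The GC box GGGCGG, read on both strands (reverse complement CCGCCC), matched 2 times in Alcam and 3 times in Ptprf, where the last 2 matches overlap, and it is found in 35.7% of all windows. The E-box CAGGTG (reverse complement CACCTG), the letters read by SNAI and ZEB factors, matched 1 time in Alcam, starting 40 bases before the annotated start. That motif is found in 20.2% of windows, and these letters were not in the Ptprf window. Neither window held the E-box CACGTG, present in 7.15% of windows, nor the AP-1 motif TGANTCA, present in 7.81%. A match describes letters and shows no binding.

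Total counts lay between 7332390 and 9293348 per library. The labelled origins were checked by marker genes: the 5 melanocyte genes of 12 listed that were in the table summed to 24600 to 25500 CPM in B16F10-BrM libraries, 2.77 to 28.1 in 482N1 and 103 to 162 in E0771-BrM. The 4 epithelial genes of 12 listed summed to 7930 to 8610 CPM in 482N1, 393 to 445 in E0771-BrM and 0 to 0.233 in B16F10-BrM, where Krt18 and Wfdc2 had no count. For lung epithelium 3 of 12 genes were in the table and summed to 105 to 117 CPM in 482N1, at most 17.6 in B16F10-BrM and at most 34.9 in E0771-BrM. Defining genes such as Epcam, Nkx2-1, Sftpc, Tyr and Mlana are not analysed here. The 5 mesenchymal genes of 12 listed summed to at least 1440 CPM in every library, most of it Vim (7290 ± 838 CPM in the lung line, 1470 ± 52.3 in the melanoma line and 3460 ± 99.8 in the breast line). Of that list Pdgfrb had no count in 482N1, Col6a1 had none in B16F10-BrM, and Col1a2 was at most 1.56 CPM on average. Of 10 myeloid genes Cd14 and Cd68 were measured and summed to at most 34.2 CPM in any library, and 3 of 10 endothelial genes summed to between 55.9 and 106 CPM. The melanoma gene Dct had 142, 14 and 148 counts in 482N1 libraries A, B and C and 353, 29 and 263 in those of E0771-BrM, so that library B was lowest in both lines. The melanocyte genes Gpnmb (557, 528 and 513 counts) and Mitf (304, 292 and 267) had no such drop in library B of E0771-BrM. In these bulk libraries fewer expressing cells and less RNA per cell cannot be told apart.

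Each of the 6 genes was below 1 CPM on average in at least 1 line and above 50 CPM in another. CPM here means normalised CPM, counts scaled to a common library size, and levels are means ± SD of 3 libraries. Over all genes tested, 233 of 11037 (2.11%) met both limits. Cadm1, Alcam and Cdh2 were below 1 CPM in E0771-BrM, where 78 genes met them, and Ptprf, Clmp and Cdh13 in B16F10-BrM, where 120 did. No member was below 1 CPM in 482N1, where 46 genes met them. These limits describe the choice of the members, and nothing is read from the counts.

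**Figure D1:**
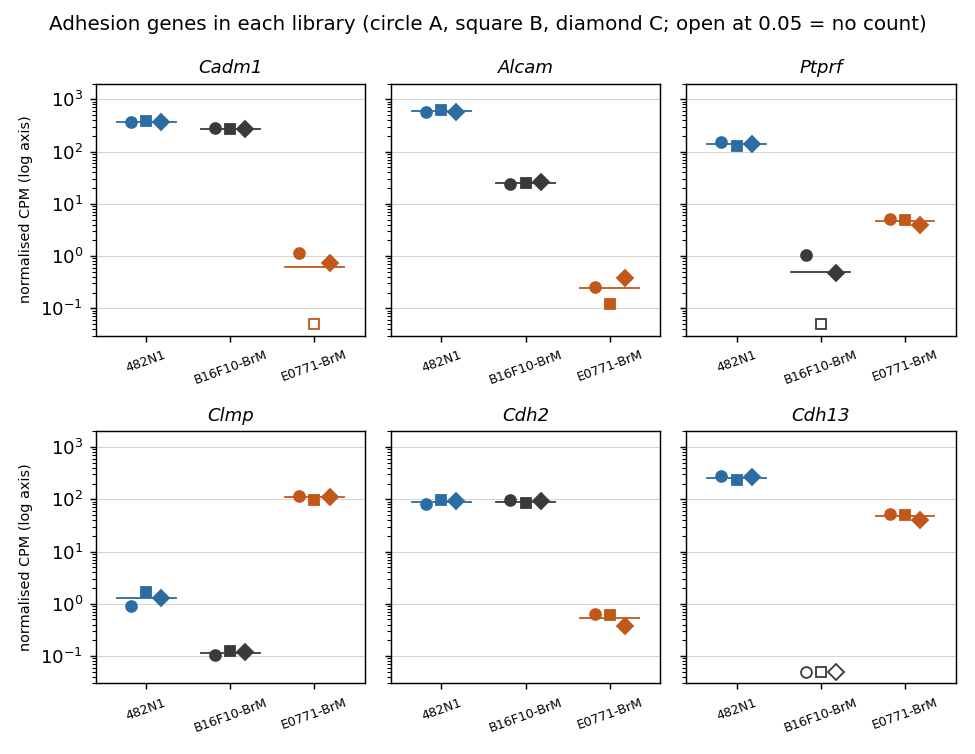
Normalised CPM on a log axis for each adhesion gene in each library of the 3 lines, with a line at the mean of a line's 3 libraries and open symbols at 0.05 for libraries with no count. Cadm1, Alcam and Cdh2 lie lowest in E0771-BrM, and Ptprf, Clmp and Cdh13 lie lowest in B16F10-BrM.

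Cadm1 encodes a nectin-like immunoglobulin adhesion protein, also called SynCAM1, which spans the synaptic cleft in neurons and was first known as a lung tumour suppressor. Its level was 374, 379 and 363 CPM in 482N1 libraries A, B and C, 283, 270 and 266 in those of B16F10-BrM, and 1.14, 0 and 0.748 in those of E0771-BrM. The 482N1 and B16F10-BrM libraries were close to each other but did not overlap, and every E0771-BrM library was far below both. The means were 372 ± 7.98, 273 ± 8.92 and 0.63 ± 0.58 CPM. The summed counts gave a 1.36-fold higher level in 482N1 than in B16F10-BrM (fitted log2 fold change of B16F10-BrM over 482N1 -0.44 ± 0.08 SE). Against E0771-BrM the level was 601-fold higher in 482N1 and 442-fold higher in B16F10-BrM, with fitted log2 fold changes of E0771-BrM of -9.19 ± 0.17 and -8.75 ± 0.17.

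The E0771-BrM level of Cadm1 rests on 9, 0 and 6 counts in libraries A, B and C. Library B, which had none, was also the one with the fewest Dct counts, and Krt18, the keratin that is abundant in 482N1, had 3, 0 and 6 counts in the same libraries. The source of the Dct and Krt18 counts in E0771-BrM, and its part in the Cadm1 counts, was not tested. Against 482N1 the fitted log2 fold change was -9.93 without library A of E0771-BrM and -8.60 without library B. When libraries A and C of both those lines were left out it was -14.66, a fitted value for a gene with no count in E0771-BrM and therefore no bound. Against B16F10-BrM the same 3 settings gave -9.48, -8.16 and -14.19.

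Alcam, the activated leukocyte cell adhesion molecule CD166, binds itself and CD6 and takes part in the bundling of growing axons. Its libraries held 585, 632 and 564 CPM in 482N1, 24.3, 25.1 and 26.2 in B16F10-BrM, and 0.254, 0.12 and 0.374 in E0771-BrM. The lines formed 3 separate steps with no overlap. The means were 594 ± 34.6, 25.2 ± 0.976 and 0.249 ± 0.127 CPM. Alcam was thus 23.6-fold higher in 482N1 than in B16F10-BrM (log2 fold change -4.56 ± 0.09 SE for B16F10-BrM over 482N1) and 102-fold higher in B16F10-BrM than in E0771-BrM (-6.58 ± 0.24). The E0771-BrM level rests on 6 counts in all. When libraries A and C of both the lung and breast lines were left out, the log2 fold change of E0771-BrM was -12.20 against 482N1, in place of -11.14 ± 0.16 (a 2400-fold difference in summed counts), and -7.55 against B16F10-BrM.

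Clmp, a relative of the coxsackievirus and adenovirus receptor that is found at epithelial junctions, had its highest level in the breast line. Its E0771-BrM libraries A, B and C held 115, 98.7 and 112 CPM, those of 482N1 0.903, 1.68 and 1.27, and those of B16F10-BrM 0.104, 0.125 and 0.117. E0771-BrM stood far above the other lines, and 482N1 stood above B16F10-BrM without overlap. The means were 108 ± 8.51, 1.29 ± 0.391 and 0.115 ± 0.0107 CPM. Clmp was 83.7-fold higher in E0771-BrM than in 482N1 (95% counting interval 58.8 to 123, log2 fold change 6.37 ± 0.17 SE). B16F10-BrM had 1 count in each library, which gave a ratio of 944 for E0771-BrM (95% counting interval 323 to 4580) and of 11.3 for 482N1 (3.52 to 57.7). Of its 4591 annotated exon bases, 463 (10.1%) are shared with a transcript on the opposite strand, Gm16096. Whether the counting used strand is not given in the sources used here, so reads from these bases cannot be told apart.

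Ptprf encodes LAR, the receptor tyrosine phosphatase that binds heparan sulphate proteoglycans outside the cell and liprins inside it. Its libraries had 151, 129 and 137 CPM in 482N1, 5.2, 4.92 and 3.99 in E0771-BrM, and 1.04, 0 and 0.466 in B16F10-BrM. The 3 lines did not overlap, with 482N1 highest and B16F10-BrM lowest. The means were 139 ± 11, 4.7 ± 0.635 and 0.503 ± 0.522 CPM. Ptprf was 29.5-fold higher in 482N1 than in E0771-BrM (log2 fold change of E0771-BrM -4.88 ± 0.15 SE) and 259-fold higher than in B16F10-BrM (log2 fold change of B16F10-BrM -7.98 ± 0.21). The B16F10-BrM level came from 10, 0 and 4 counts, with none in library B. Krt18, abundant in 482N1, had no count in any B16F10-BrM library, and the source of the Ptprf counts was not tested. Without library A of B16F10-BrM the log2 fold change was -9.08 against 482N1, and that of E0771-BrM over B16F10-BrM was 4.20 in place of 3.10 ± 0.36.

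Cdh2 encodes N-cadherin, the classical cadherin of neurons and mesenchymal cells. Its libraries had 80, 98.5 and 92.7 CPM in 482N1, 95.8, 83.3 and 93.4 in B16F10-BrM, and 0.634, 0.6 and 0.374 in E0771-BrM. The 482N1 and B16F10-BrM libraries overlapped, and all E0771-BrM libraries were below 1 CPM. The means were 90.4 ± 9.45, 90.9 ± 6.65 and 0.536 ± 0.141 CPM, and the log2 fold change of B16F10-BrM over 482N1 was 0.01 ± 0.09 SE, smaller than its error. Cdh2 was 169-fold higher in 482N1 and 170-fold higher in B16F10-BrM than in E0771-BrM, where it had 5, 5 and 3 counts.

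Cdh13 encodes T-cadherin, an unusual cadherin that is held to the membrane by a glycosylphosphatidylinositol anchor, lacks a cytoplasmic tail for catenins and binds adiponectin. Its libraries had 282, 232 and 270 CPM in 482N1 and 51.6, 51 and 41 in E0771-BrM, and it had no count in any B16F10-BrM library. The 3 lines did not overlap. The means in 482N1 and E0771-BrM were 261 ± 25.7 and 47.9 ± 5.96 CPM, a 5.44-fold difference (log2 fold change of E0771-BrM over 482N1 -2.45 ± 0.09 SE). Against a floor of 3 counts over the 3 B16F10-BrM libraries, 0.115 CPM, Cdh13 was at least 2270-fold higher in 482N1 and at least 418-fold higher in E0771-BrM. The cadherins therefore differed in order: Cdh2 was at similar levels in 482N1 and B16F10-BrM and low in E0771-BrM, while Cdh13 was present in 482N1 and E0771-BrM and not detected in B16F10-BrM at this depth.

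In the fit across all genes, 5 of the 6 members passed the threshold (adjusted p of 0.05) with a lower level in B16F10-BrM than 482N1, and Cdh2 did not pass. Of all 11037 genes, 77.8% passed in either direction and 39.9% as lower. Among those 5, Clmp had 7, 14 and 10 counts in the 482N1 libraries and 1 in each of B16F10-BrM. The filter on counts kept it only through its level in E0771-BrM. Between E0771-BrM and 482N1, 5 members were lower in E0771-BrM and Clmp was higher, against 78.1% of genes in either direction, 40.4% as lower and 37.7% as higher. Between E0771-BrM and B16F10-BrM, 3 were higher in E0771-BrM (Ptprf, Clmp and Cdh13) and 3 lower (Cadm1, Alcam and Cdh2), against 73.7% of genes in either direction, 37.2% as higher and 36.5% as lower. The libraries of the compared lines did not overlap for 5, 6 and 6 members in these comparisons, and for 78.7%, 78.5% and 75.5% of all genes. The 3 comparisons share libraries, and nothing is read from these counts, because the members were chosen on these contrasts.

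Levels of different genes were compared per kilobase of annotated exon, using exon lengths of GENCODE M21 (GRCm38), which was matched by symbol for 10836 genes of the table (98.1%). In 482N1 the order was Alcam at 83.4 ± 4.87 CPM per kb, Cadm1 at 35.6 ± 0.765, Cdh13 at 23.3 ± 2.29, Ptprf at 15.2 ± 1.2, Cdh2 at 11.2 ± 1.17 and Clmp at 0.28 ± 0.0852. Neighbours in that order were separated by more than the sum of their SDs. By the same scale Alcam in 482N1 stood at percentile 95 of the genes, Cadm1 at 89, Cdh13 at 83.7, Ptprf at 76.9 and Cdh2 at 70.3, while Clmp stood at 4.05.

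In B16F10-BrM the leading adhesion gene was Cadm1 at 26.2 ± 0.855 CPM per kb (percentile 85.7), followed by Cdh2 at 11.3 ± 0.825 (percentile 72) and Alcam at 3.54 ± 0.137 (percentile 43.5). Ptprf at 0.0549 ± 0.057 and Clmp at 0.0251 ± 0.00233 did not differ beyond their spread, and Cdh13 had no count. In E0771-BrM the order turned, with Clmp first at 23.6 ± 1.85 (percentile 84.3), Cdh13 next at 4.26 ± 0.53 (percentile 47.4) and Ptprf at 0.514 ± 0.0694 (percentile 9.93). Cdh2 at 0.0665 ± 0.0175, Cadm1 at 0.0604 ± 0.0556 and Alcam at 0.035 ± 0.0178 CPM per kb did not differ beyond their spread there. Exon lengths cover every annotated transcript of a gene, so a line that uses a shorter form has a higher level per base than is given.

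In the 10 cases where a line had 658 counts of a member or more, the coefficient of variation over 3 libraries lay between 2.15% (Cadm1 in 482N1) and 12.4% (Cdh13 in E0771-BrM). It was 92.1% for Cadm1 in E0771-BrM and 104% for Ptprf in B16F10-BrM, with 15 and 14 counts over 3 libraries, and 26.4% for Cdh2 in E0771-BrM with 13. Clmp in B16F10-BrM, with 1 count in each library, had 9.27%, which reflects only the library sizes and is no measure of its spread.

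Profiles were compared by the root mean square difference of log2 CPM (prior count of 2), each gene centred on its own mean, over all 9 libraries. This measure is a description, since libraries of a line are alike. Among the members Cadm1 and Cdh2 were the closest pair, at 1.16 log2 units, followed by Cadm1 and Alcam at 1.79, Alcam and Cdh2 at 1.96, and Ptprf and Cdh13 at 1.97. Clmp was at least 3.94 log2 units from each of the others and farthest from Cadm1, at 7.62.

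The closest single match of any member was that of Alcam with Pmepa1, at 0.20 log2 units. Pmepa1 had its levels in the same 3 steps, at 528 ± 18.3, 24.9 ± 1.76 and 0.125 ± 0.125 CPM from 482N1 to E0771-BrM, and Camk2n1 at 0.25 and Hcfc1r1 at 0.30 log2 units came next. Pmepa1 encodes a membrane inhibitor of TGF-beta signalling and Camk2n1 an inhibitor of calmodulin kinase II. Cdh2 was nearest to Tmed4 (0.23), a cargo receptor of the early secretory pathway, Ctsc (0.26), a lysosomal protease, and Pogk (0.30), and 24 genes lay within 0.5 log2 units of it. Cdh13 was nearest to Mndal (0.27), an interferon-inducible gene, with 299 ± 5.19 CPM in 482N1, 1 count in B16F10-BrM and 70.6 ± 8.49 CPM in E0771-BrM, then to Arl4c (0.34) and the kinase gene Pak1 (0.36), both with no count in B16F10-BrM.

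Within 0.5 log2 units Alcam had 3 genes and Cdh13 had 7, against at most 1 for Cadm1, Clmp and Ptprf. Within 1 log2 unit the order was another, with 103 genes for Cdh2, 35 for Ptprf, 32 for Cdh13, 17 for Clmp, 16 for Alcam and 8 for Cadm1. Cadm1 was nearest to Marcks (0.45), which encodes an actin- and membrane-binding substrate of protein kinase C and had 229 ± 8.86, 319 ± 18.4 and 0.335 ± 0.291 CPM in 482N1, B16F10-BrM and E0771-BrM. Pbxip1 (0.61) and Igf2bp3 (0.68) came next. Clmp was nearest to the integrin gene Itgb7 (0.45), with 116 ± 13.7 CPM in E0771-BrM, then Emilin2 (0.53) and the growth factor receptor gene Fgfr1 (0.58). Ptprf was nearest to the membrane-bound chemokine gene Cx3cl1 (0.55), Add2 (0.56) and Smpd3 (0.62). The genes chosen as nearest depend on the prior count: with 0.5 or 5 in its place, the set of 3 changed in 10 of 12 cases.

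**Figure D2:**
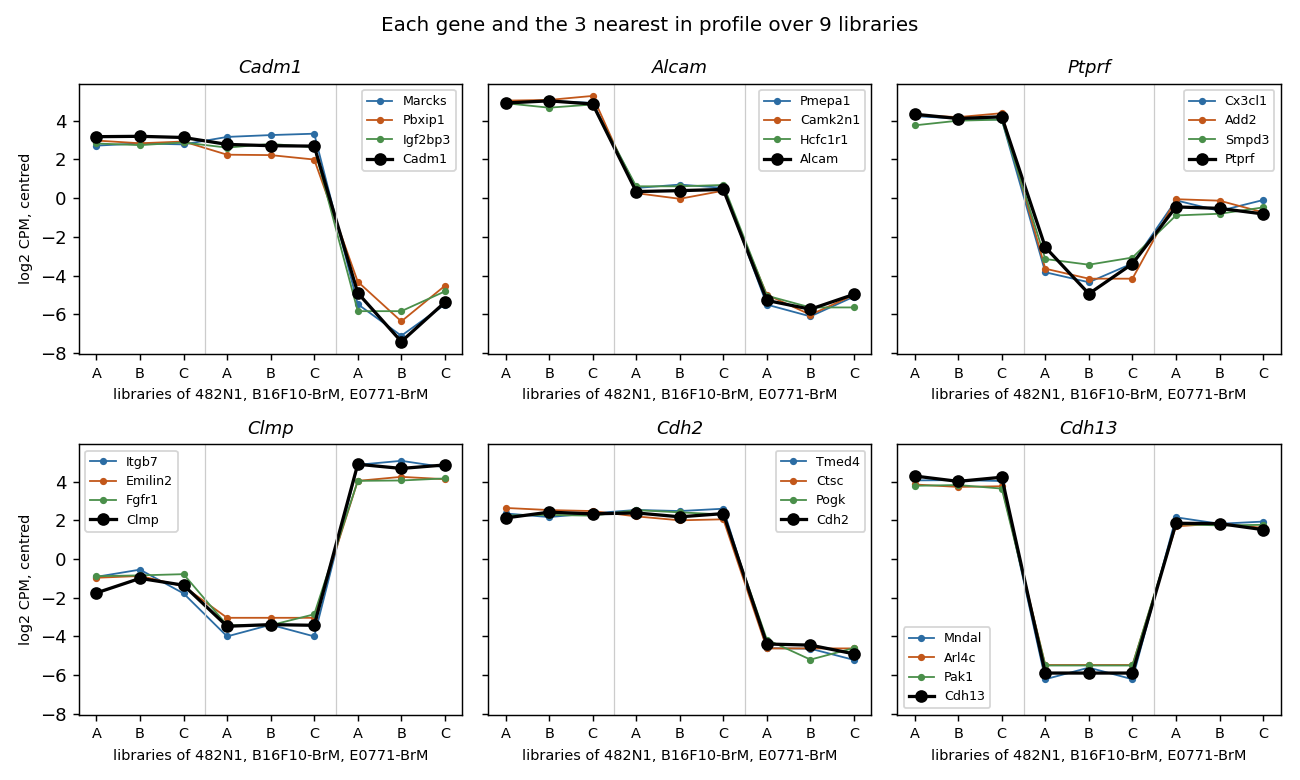
Centred log2 CPM over the 9 libraries (A, B and C of each line, in the order 482N1, B16F10-BrM, E0771-BrM) for each adhesion gene in black and the 3 genes nearest in profile in colour. The Alcam panel shows 3 steps, and the Cdh2 panel shows similar levels in 482N1 and B16F10-BrM with a drop in E0771-BrM.

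Other genes of the members' families and pathways were taken from 7 lists, with 276 genes besides the members, of which 121 were measured. The lists were drawn up with earlier results of these data known and are no independent evidence. Of the 121 genes, 33 were higher and 73 lower in B16F10-BrM than in 482N1 (median log2 fold change -0.76, against -0.04 over all genes), so 87.6% passed where 77.8% of all genes did. Against 482N1, E0771-BrM likewise had 33 higher and 73 lower (median -0.86, all genes -0.04), so 87.6% passed where 78.1% of all genes did. Between E0771-BrM and B16F10-BrM, 56 passed with a higher level in E0771-BrM and 49 with a lower one (median 0.21, all genes 0.02). The share that passed there was 86.8%, against 73.7% of all genes. No set test was made. The first comparisons share the 482N1 libraries.

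**Figure D3:**
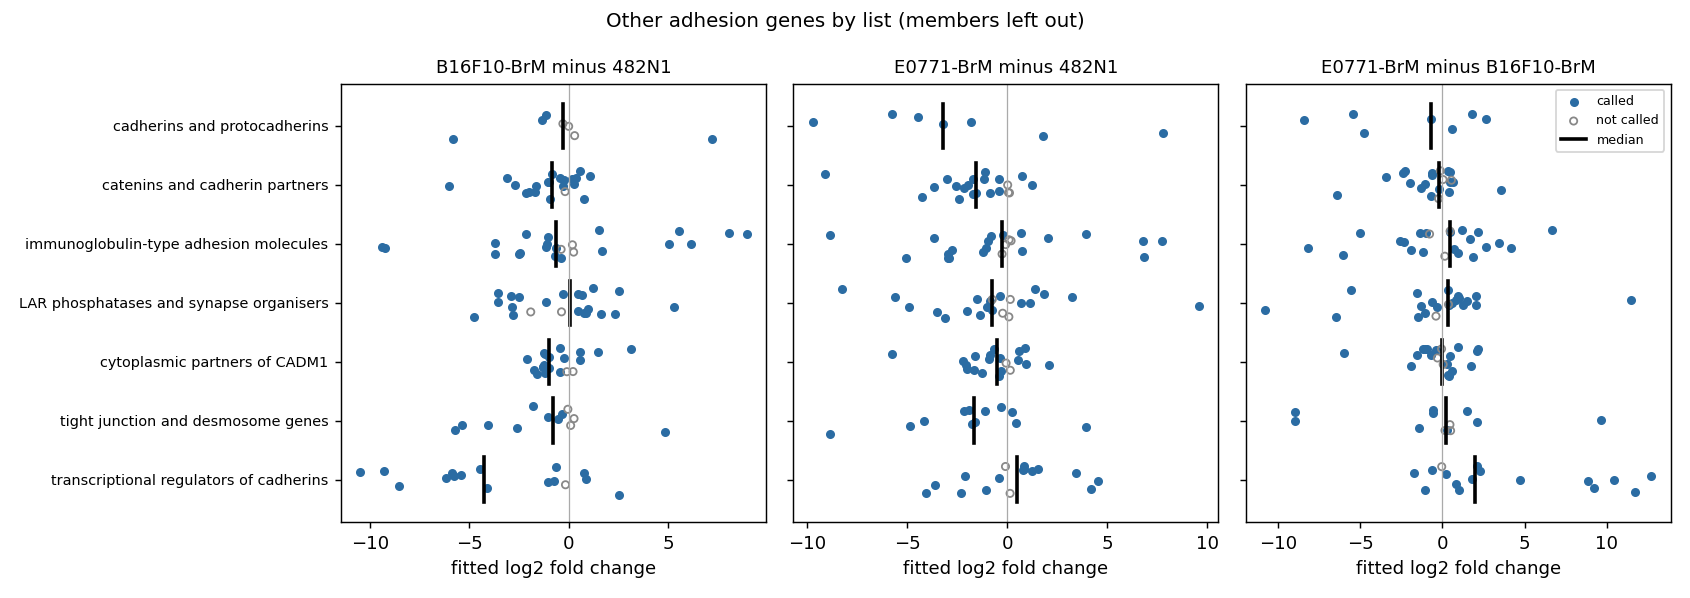
Fitted log2 fold changes of the measured genes of each list, without the 6 members, in the 3 comparisons, with filled points for genes that passed the threshold, open points for those that did not and a bar at the list's median. The median of the cadherin list is -3.19 in E0771-BrM over 482N1, and that of the list of transcriptional regulators is -4.28 in B16F10-BrM over 482N1.

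Beside Cdh2 and Cdh13, 7 of 47 other cadherins and protocadherins were measured, and E-cadherin, Cdh1, is not analysed here. In E0771-BrM 5 of the 7 were lower than in 482N1 and 2 higher, where 40.4% and 37.7% of all genes were. Pcdh7 had 1 count over the E0771-BrM libraries, and, unlike Cdh2, it was also lower in B16F10-BrM (18.9 ± 1.68 CPM) than in 482N1 (48 ± 3.62). Pcdh9 and Pcdh19 likewise had 1 count each in E0771-BrM. They did not pass between the other lines, with 3 ± 0.849 and 1.21 ± 0.203 CPM in 482N1 and 2.45 ± 0.144 and 1.51 ± 0.253 in B16F10-BrM. Calsyntenin 3, Clstn3, a cadherin family member of synapses, was higher in both brain metastatic lines, at 8.51 ± 1.58 CPM in B16F10-BrM and 12.8 ± 2.7 in E0771-BrM against 1 count in 482N1. In B16F10-BrM 3 of the 7 were lower than in 482N1, 1 was higher and 3 did not pass, so that 57.1% passed against 77.8% of all genes.

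The genes of beta-catenin and p120 catenin, which bind the tail of classical cadherins, were lowest in E0771-BrM, as Cdh2 was. Beta-catenin, Ctnnb1, was named after its values were seen. It had 193 ± 10.4 CPM in E0771-BrM against 632 ± 33.1 in 482N1 and 940 ± 49.6 in B16F10-BrM (edgeR adjusted p = 2.47e-26 and 3.11e-31). The p120 catenin gene Ctnnd1, whose protein holds cadherins at the surface, had 9.13 ± 2.76 CPM against 117 ± 20.3 and 36 ± 7.61. Plakoglobin, Jup, was lowest in B16F10-BrM instead, at 0.893 ± 0.46 CPM against 57.6 ± 6.59 in 482N1 and 10.8 ± 1.33 in E0771-BrM. Ptprk, a receptor phosphatase of cadherin contacts, reached 54.1 ± 3.74 CPM in 482N1 but only 2 counts in E0771-BrM. Of 21 measured catenins and partners, 16 were lower and 2 higher in E0771-BrM than in 482N1 (85.7% passed, against 78.1% of all genes). In B16F10-BrM 14 were lower than in 482N1 and 6 higher (95.2% passed, against 77.8%).

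Among 23 other immunoglobulin-type adhesion genes, 12 were lower and 7 higher in E0771-BrM than in 482N1, and the share that passed, 82.6%, was near the 78.1% of all genes. Igsf3 had the same order as Cadm1, with 64.8 ± 2.8 CPM in 482N1, 40.4 ± 1.29 in B16F10-BrM and 3 counts in E0771-BrM. The axonal adhesion gene L1cam, at 38 ± 3.04 CPM in E0771-BrM and 8 counts in 482N1, Icam2 at 38.5 ± 2.32 CPM against 4 counts, and Emb at 68.2 ± 3.68 against 0.582 ± 0.315 went the other way, as Clmp did. In B16F10-BrM 13 were lower than in 482N1 and 7 higher (87% passed, against 77.8% of all genes). The melanoma adhesion gene Mcam had 49.1 ± 11.5 CPM there against 2 counts in 482N1, the neuronal gene Nrcam 139 ± 13 against 0.505 ± 0.233, and Vcam1 2 counts against 55.7 ± 4 CPM.

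Of 22 other genes of LAR phosphatases and synapse organisers, 9 were lower and 11 higher in B16F10-BrM than in 482N1 (median 0.07, or 0.46 without Flrt2, which had 1 count in 482N1 and none in B16F10-BrM). The share that passed was 90.9%, against 77.8% of all genes. The LAR relative Ptprs, named after its values were seen, did not share the drop of Ptprf in B16F10-BrM. It had 110 ± 9.94 CPM there, 78.6 ± 8.55 in 482N1 and 38.8 ± 2.87 in E0771-BrM (edgeR adjusted p = 4.98e-06 for B16F10-BrM over 482N1). Ppfibp2, a liprin gene, had 26.8 ± 2.25 CPM in B16F10-BrM and 4.58 ± 1.45 in 482N1, with no count in E0771-BrM. In E0771-BrM 12 of the 22 were lower than in 482N1 and 6 higher (81.8% passed, near the 78.1% of all genes). The latrophilin gene Adgrl2 was highest in B16F10-BrM, at 71.2 ± 9.63 CPM against 1.8 ± 0.969 and 1.53 ± 0.461 in 482N1 and E0771-BrM. Its ligand genes differed, with Flrt3 at 89.3 ± 7.26 CPM in 482N1, and Flrt2 at 43.6 ± 0.968 CPM in E0771-BrM.

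Scaffold and cytoskeletal partners known to bind the Cadm1 tail, or related to those that do, had 20 measured genes. In B16F10-BrM 14 of 20 were lower than in 482N1 and 4 higher (median -0.98), where 39.9% of all genes were lower and 38% higher. In E0771-BrM, 13 were lower than in 482N1 and 5 higher (median -0.53), where 40.4% of all genes were lower and 37.7% higher. Mpp2 was low in E0771-BrM, as Cadm1 was, with 5 counts there against 12 ± 3.3 CPM in 482N1 and 14 ± 2.05 in B16F10-BrM, whose libraries overlapped. Cask, a synaptic scaffold kinase, was highest in the lung line, at 37.6 ± 6.49 CPM. The melanoma line had 15.6 ± 1.43 CPM of it, and the breast line was lowest, at 8.27 ± 0.801. Mpp1 was highest in E0771-BrM, at 107 ± 3.36 CPM against 72 ± 2.19 in 482N1 and 24.1 ± 1.88 in B16F10-BrM.

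Genes of transcriptional regulators known to act on cadherin genes were set beside Cdh2 and Cdh13 as levels, and a relation between them was not tested. Most are transcription factors, but Hdac1, Ctbp1 and Ctbp2 are cofactors. Of 16 measured, 12 were lower and 3 higher in B16F10-BrM than in 482N1 (median -4.28, or -2.69 when the 4 genes without a count in a line take the limit that 3 counts allow). Zeb1 had 58.4 ± 1.98 CPM in 482N1, 2 counts in B16F10-BrM and 54.7 ± 2.28 CPM in E0771-BrM. Twist1 had no count in B16F10-BrM, against 21.7 ± 1.14 CPM in 482N1 and 50.7 ± 5.32 in E0771-BrM. Prrx1 was highest in E0771-BrM, at 101 ± 7.62 CPM, with 5.58 ± 0.481 in 482N1 and none in B16F10-BrM. In E0771-BrM 8 of the 16 were higher than in 482N1 and 6 lower, where 37.7% and 40.4% of all genes were. Foxa1 and Sox9 were among the 6 lower, at 2.39 ± 0.565 and 53.1 ± 7.26 CPM in E0771-BrM. In 482N1 they had 40.3 ± 0.0966 and 645 ± 36.2 CPM, and both were also lower in B16F10-BrM than in 482N1. Against B16F10-BrM 12 were higher in E0771-BrM and 3 lower, where 37.2% and 36.5% of all genes were. In B16F10-BrM over 482N1 the share of the 16 that passed was 93.8%, against 77.8% of all genes.

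Snai1, Snai2 and Zeb2, like Ctnnb1 and Ptprs above, were named after their values were seen, to complete their families. Snai1 reached 6.9 ± 1.41 CPM in the breast line against 0.626 ± 0.335 in the lung line, while B16F10-BrM had no count. Snai2 had 26 ± 7.65 CPM in the breast line, 8.95 ± 1.67 in the lung line and 5.29 ± 0.159 in the melanoma line. Twist2 likewise was highest in the breast line, at 21.1 ± 2.45 against 0.883 ± 0.243 CPM in the lung line, with no count in B16F10-BrM. Zeb2 was highest in the line with the least Zeb1, at 142 ± 2.93 CPM in B16F10-BrM against 24.6 ± 0.495 in 482N1 and 43.2 ± 4.39 in E0771-BrM.

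**Figure D4:**
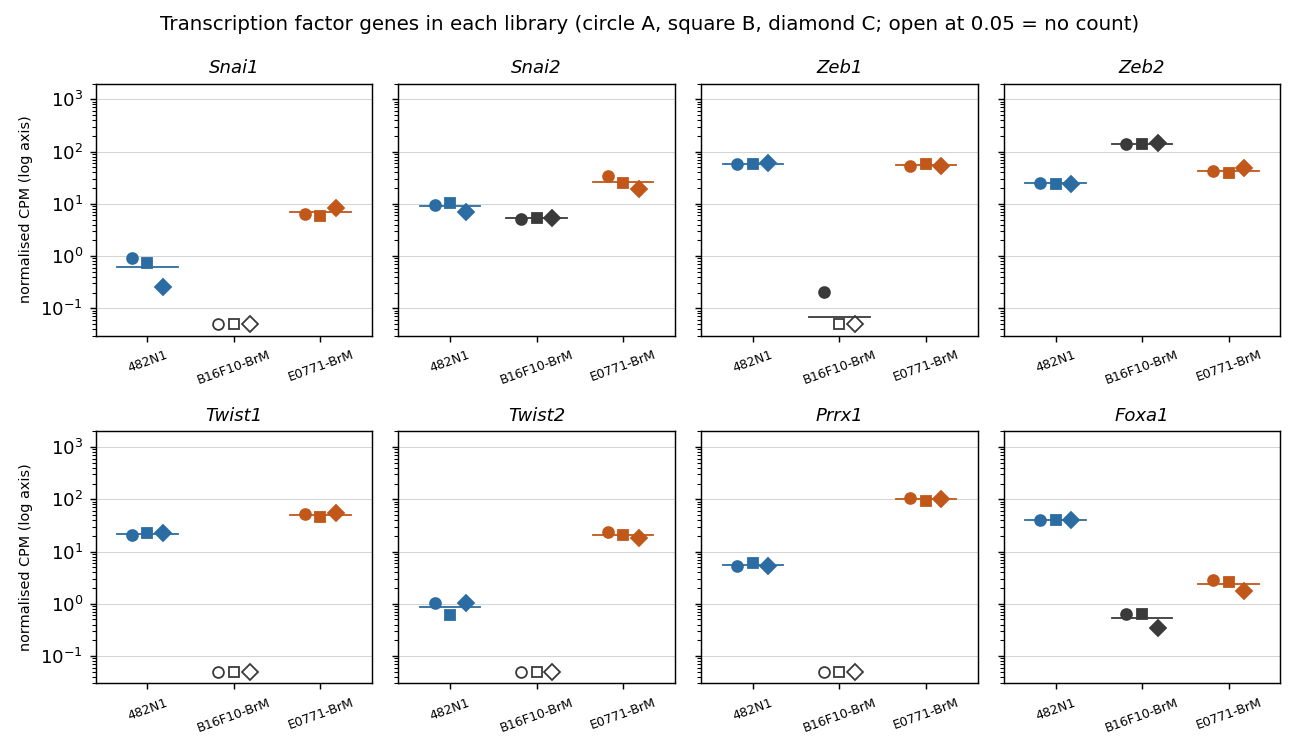
Normalised CPM on a log axis for 8 transcription factor genes in each library of the 3 lines, with a line at the mean of a line's 3 libraries and open symbols at 0.05 for libraries with no count. Snai1, Twist1, Twist2 and Prrx1 have no count in B16F10-BrM, where Zeb2 reaches 142 CPM.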

How the data were processed

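The authors deposited raw read counts per gene symbol for 9 libraries, without normalisation. Per the submitters' processing notes, FastQC, TopHat2 2.0.10, Bowtie 1.0.0, SAMtools 0.1.19, Cufflinks 2.2.1 and build GRCm39 were used; the counting tool, its strand setting, the annotation and the choice of genes are not given in the sources used here. Counts were fitted in R 4.3.3 with edgeR 4.0.16: filterByExpr kept 11037 of 11046 genes, libraries were scaled by TMM, and robust quasi-likelihood F tests, two-sided, compared lines in pairs in 1 fit over 9 libraries. P-values were adjusted by the Benjamini-Hochberg method over all genes, with a threshold of 0.05. SEs are the log2 fold change divided by the root of F. Where a line had few counts of a gene, such SEs are too small, and the counting intervals are wider. Ratios are of summed counts over scaled library sizes, with 95% intervals that cover counting error only, as does the floor of 3 counts; PCR copies cannot be recognised without molecular identifiers. The procedure was tested on simulated counts with far smaller fold changes than most of the members had, so that test does not cover them.

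The members and lists were chosen with earlier results of these data known. Named genes were the members, the 3 nearest in profile to each, without predicted genes, and up to 4 per list and comparison that passed the threshold without overlap between libraries, by absolute log2 fold change; a selection is printed. Ctnnb1, Ptprs, Snai1, Snai2 and Zeb2 lie outside that rule, as do Dct, Krt18, Vim and the other marker genes, given for the check of libraries. Same-lettered libraries of different lines showed little correlation in their deviations (-0.01 to 0.09 over 9 pairs), so letters were not treated as pairs. Such correlations can miss a deviation shared by few genes. The melanocyte genes Dct, Tyrp1 and Pmel were lowest in library B of both the lung and breast lines, and the reason was not tested. Proteins were not used here, and Cadm1, Clmp, Cdh2 and Cdh13 had no promoter entry. Alternatives used limma 3.58.1 and DESeq2 1.42.0 besides edgeR.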

Additional observations from a re-analysis of the deposited data

How the results depend on the processing

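Counts of genes called stayed within 1.5 times of the reported ones under every alternative but the test against a 2-fold change (glmTreat), which called 3477, 3342 and 2905 genes for B16F10-BrM and E0771-BrM over 482N1 and E0771-BrM over B16F10-BrM, and 62, 70 and 58 genes of the lists. With each library left out in turn the gene counts were 8233 to 8600, 8282 to 8615 and 7780 to 8191, and the list counts 104 to 107, 103 to 106 and 103 to 105. With the library letter as a replicate block they were 8595, 8623 and 8162 genes, and 106, 108 and 105 list genes.

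Of 341 log2 fold changes of the members under alternatives, 337 kept their direction and their side of the threshold. The other 4 were of Cdh2 between B16F10-BrM and 482N1, whose value near 0 became -0.07 without library A of 482N1, -0.03 and -0.01 without libraries A and C of B16F10-BrM, and -0.11 when libraries A and C of the lung and breast lines were left out. Over single left-out libraries it ranged from -0.07 to 0.08, never past the threshold. limma-voom moved the log2 fold changes of 3 members by more than 1.5 times on the linear scale: Cdh13 in B16F10-BrM over 482N1 from -14.08 to -12.14, Ptprf there from -7.98 to -8.64, and Cadm1 in E0771-BrM over 482N1 from -9.19 to -9.93. For E0771-BrM over B16F10-BrM it gave 9.70 for Cdh13, 3.77 for Ptprf and -9.48 for Cadm1. Member levels below 1 CPM rest on at most 15 counts over 3 libraries. Clmp in B16F10-BrM over 482N1 had no value in the fit of those lines alone, where the filter on counts dropped it.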

Other observations

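Tight junction and desmosome genes, the other contacts of epithelial cells, had 12 of 35 listed members measured. In E0771-BrM 9 were lower than in 482N1 and 3 higher, and in B16F10-BrM 8 were lower, 1 was higher and 3 did not pass. The shares that passed were 100% and 75%, against 78.1% and 77.8% of all genes, so that in B16F10-BrM the share was near that of all genes. The paracingulin gene Cgnl1 had 147 ± 15.4 CPM in 482N1 against 3.6 ± 1.63 in B16F10-BrM and 5.1 ± 1.27 in E0771-BrM, and the desmosomal plakophilin gene Pkp2 95.4 ± 12.8 against 5.79 ± 1.06 and 25.3 ± 3.73. The 1 gene higher in B16F10-BrM was Patj, which encodes a scaffold of the Crumbs polarity complex. It had 9951, 8506 and 7513 counts in the B16F10-BrM libraries, 302, 262 and 258 in those of 482N1 and 19, 7 and 21 in those of E0771-BrM. The polarity gene Pard6g had the order of Cdh2, with 7.08 ± 1.05 CPM in 482N1, 7.62 ± 1.55 in B16F10-BrM and no count in E0771-BrM.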
